A study of Rattus norvegicus with 5 samples.

Results

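Growth factor receptor tyrosine kinases were measured in 4 rat hepatocellular carcinoma lines and 1 rat liver. The receptors were Met, Egfr, Erbb2, Erbb3, Fgfr1, Fgfr2, Fgfr3, Fgfr4, Axl and Pdgfra, and a probe was taken when the array's annotation gave 1 of these symbols and no other gene. This rule found 16 of the 33849 discovery probes on the array, for 9 of the 10 genes. No probe carried the name Fgfr3 alone, so Fgfr3 was not analysed here, and 1 further probe that named Fgfr1 beside another gene was not used.

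Untreated liver, from a male SD rat aged 50 weeks, served as the reference. The lines C5F and C6 were described as low-metastatic and the lines N1 and L2 as high-metastatic, and all 4 came from male F344 rats of 31 weeks that had been treated with N-nitrosomorpholine and diethylnitrosamine. Each line and the liver were hybridised to 1 array each, so a class held 2 lines. Errors measure how far the lines of 1 class lie apart, any technical spread included. Limma draws this spread toward a value shared by all probes in the fit, so an error is not that of the probe alone. Strain, age, carcinogen treatment, tumour and culture all differed between the lines and the liver and cannot be told apart. RNA came from whole tissue or whole cultures, in which fewer cells of a type and less RNA per cell cannot be told apart.

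Of the discovery probes 30.6% were above background in liver and 32.7% to 39.2% in the lines. The labelled tissue held its markers: 9 of 10 hepatocyte markers were above background in liver, the other one having no usable spot, against 6 in C5F, 2 in N1 and 1 each in C6 and L2. Over the 7 of these genes with a usable spot on all 5 arrays, the summed signal was 33408 in liver, 2300 in C5F and 49.7 to 58.3 in the other lines. Hnf4a, a transcription factor of hepatocytes, was above background in all 4 lines, whereas albumin was at the floor in each of them. Kupffer cell and macrophage markers were above background for 7 of 7 genes in liver and 2 of 7 in each line. Sinusoidal endothelial markers were above background for 5 of 5 usable genes in liver and for 2 or 3 of 7 in the lines.

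Receptor tyrosine kinases are membrane proteins that bind a growth factor outside the cell, pair up and phosphorylate tyrosines on their inner tails, where adaptors start the RAS-ERK and PI3K-AKT cascades. In liver, EGFR and MET drive hepatocyte proliferation in regeneration, and FGFR4, together with the co-receptor beta-klotho, restrains bile acid synthesis. ERBB2 binds no ligand of its own and ERBB3 has a weak kinase, so that each signals by pairing with another ERBB receptor.

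Egfr and Fgfr4 fell and Erbb2 rose between liver and the lines. The promoters of these 3 genes are shown because their signals were the ones that passed the test. RefSeq's promoter table (GRCr8) held 8 of the 10 receptors. Each sequence covers the 250 bases before the annotated start, 5′ to 3′ on the gene's strand, in lower case, with GGGCGG on either strand, the core of the GC box, in capitals.
Egfr, chr14:95378376-95378625, plus strand: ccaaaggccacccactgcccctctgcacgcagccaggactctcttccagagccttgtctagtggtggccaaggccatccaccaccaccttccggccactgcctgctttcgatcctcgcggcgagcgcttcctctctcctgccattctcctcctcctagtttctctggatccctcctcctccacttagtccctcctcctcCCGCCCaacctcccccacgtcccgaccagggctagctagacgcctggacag
Erbb2, chr10:83907351-83907600, plus strand: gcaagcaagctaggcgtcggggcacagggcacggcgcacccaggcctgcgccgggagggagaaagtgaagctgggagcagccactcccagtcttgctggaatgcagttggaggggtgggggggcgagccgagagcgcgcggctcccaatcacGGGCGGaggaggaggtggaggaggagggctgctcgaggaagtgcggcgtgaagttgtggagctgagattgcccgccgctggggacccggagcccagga
Fgfr4, chr17:9481390-9481639, minus strand: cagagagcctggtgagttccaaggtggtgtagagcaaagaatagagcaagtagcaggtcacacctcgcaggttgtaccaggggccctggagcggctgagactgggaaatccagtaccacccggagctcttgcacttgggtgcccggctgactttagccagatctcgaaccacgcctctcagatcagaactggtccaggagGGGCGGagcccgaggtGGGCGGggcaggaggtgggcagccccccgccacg
The Egfr window held 1 GGGCGG, the Erbb2 window 1 and the Fgfr4 window 2. Such a match was present in 6 of the 8 receptor windows found and in 30.5% of 33469 promoter windows of the same length. GC content was 63.6% for Egfr, 69.2% for Erbb2 and 62.8% for Fgfr4, against a median of 51.2% over those windows. Met (42.0%) and Pdgfra (47.2%), whose windows held no GGGCGG, lay below that median. TATAAA on either strand was in none of the 8 windows and in 12.9% of all. CCAAT on either strand was found in the Erbb2 window and not in the other two that are shown, against 34% of all windows. The searched letters do not overlap one another, and a match is a description of these letters, not a binding site.

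Values below are quantile-normalised signals, in arbitrary units of 1 probe that cannot be set against another probe's, or their log2. A spot was called above background, near background or irregular by the authors' scanning software, and irregular spots were left out. A fold against a spot near background is a bound, written "at least". It was computed from the dimmest signal above background on the same array, or from the spot's own signal where that was higher. Fitted log2 differences use a floor of 2.53 (1.34 on the log2 scale) for such spots and are no bounds.

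**Figure D1:**
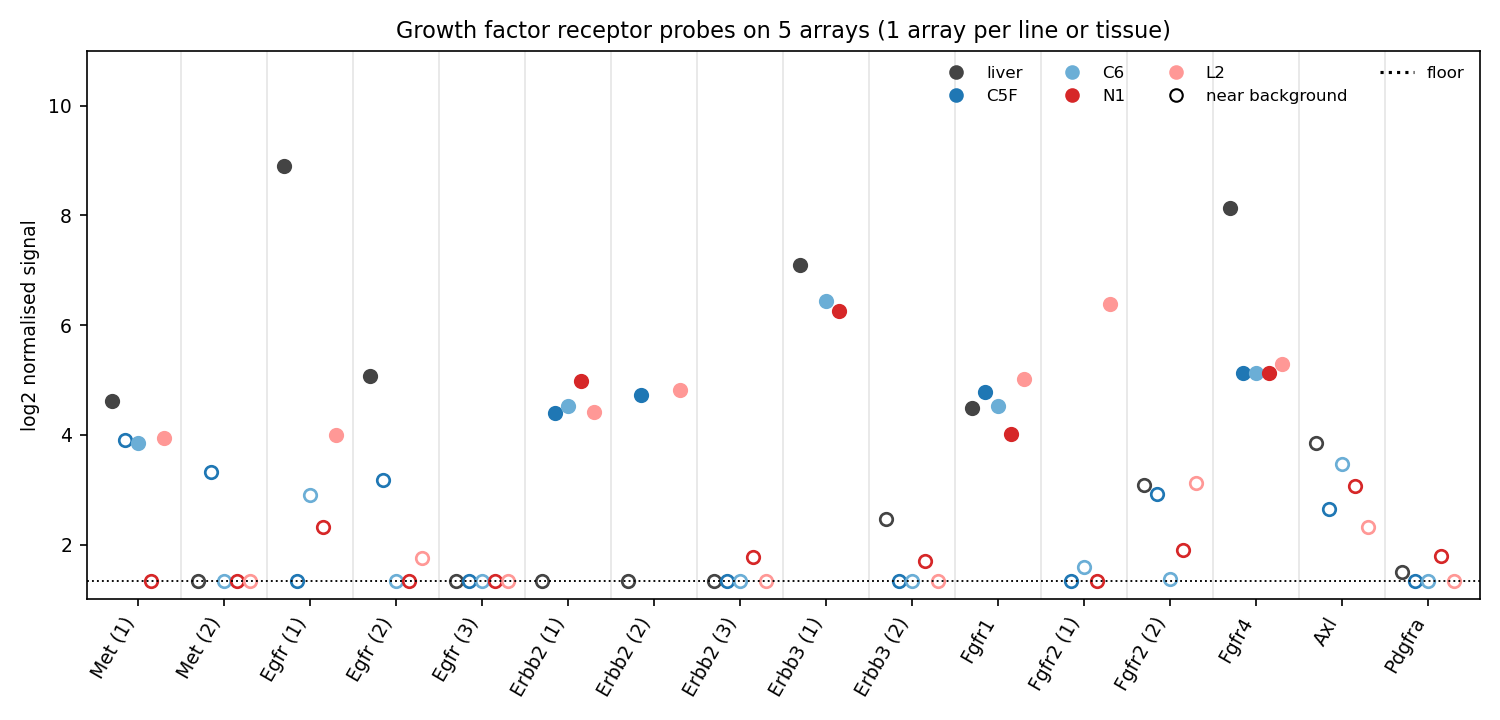
Log2 normalised signal of the 16 receptor probes (x axis, several probes of a gene numbered from the brightest) on each of the 5 arrays. Filled points were above background, open points near background, a missing point is an irregular spot, and the dotted line is the floor at 1.34. Egfr and Fgfr4 are highest in liver, Erbb2 is above background in the lines alone, and Fgfr2, with no usable liver spot on its brighter probe, in L2 alone.

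The epidermal growth factor receptor Egfr was bright in liver and near background in most lines. Its brightest probe gave a signal of 478 in liver; C5F had 0.0806, C6 had 7.46, N1 had 4.99 and L2 had 15.9, and of the lines only L2 was above background. The liver signal was 30.0-fold that of L2, and at least 60.7-fold that of C5F, 40.6-fold that of C6 and 36.6-fold that of N1. The probe was kept for testing through its liver spot, the side where it was higher. The fitted difference of lines minus liver was −6.26 ± 0.99 on the log2 scale (SE, 4 lines and 1 liver), with a limma adjusted p of 0.0384. Because C5F was at the floor, and C6 and N1 were near background, the size of that value rests in part on the floor. With an offset of 50 in its place the difference was −3.21 and the adjusted p 0.00228. A further Egfr probe was above background in liver alone, at 33.6, with 3.39 to 9.04 in C5F and L2 and 0.618 to 2.14 in C6 and N1. That probe, also kept through its liver spot, put liver at least 2.58-fold to 3.72-fold above the lines. Its fitted difference of −3.17 ± 0.82 had an adjusted p of 0.0838. The last Egfr probe was near background on every array and gave no measure. The call for Egfr was lost when any 1 of the 4 lines was left out (−6.74 to −5.82, adjusted p 0.0735 to 0.110) and when dim probes were kept in the fit (adjusted p 0.109), while the direction was the same in each of these. Egfr fell beside the hepatocyte markers, whose summed signals are given above, and their part in the difference was not tested.

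Erbb2, the ligandless partner of the ERBB family, showed the opposite order. Its brightest probe gave 1.32 in liver, near background, and in the lines 21.1 (C5F), 22.9 (C6), 31.5 (N1) and 21.3 (L2), all above background. The liver value lay below that of every line. Each line was at least 1.44-fold above liver (1.44 for C5F, 1.57 for C6, 2.15 for N1 and 1.46 for L2), and the lines together at least 1.63-fold. The probe was kept for testing through its spots in the lines, the side where it was higher. The fitted difference was 3.24 ± 0.31 (log2, SE), with a limma adjusted p of 0.0179. Because liver was at the floor, the size of that fitted value rests on the floor: with an offset of 50 in its place the difference was 0.53 and the adjusted p 0.0650. A further Erbb2 probe had usable spots in liver (1.53, near background), C5F (26.4) and L2 (28.2), with irregular spots in C6 and N1. There the lines stood at least 1.803-fold (C5F) and 1.93-fold (L2) above liver, with no test. The remaining Erbb2 probe was near background on every array. Without C5F or without C6 the adjusted p of Erbb2 was 0.0795 or 0.0844. Of 4 cholangiocyte markers with a probe, the 2 with usable spots on all 5 arrays were near background throughout. Krt19, a keratin of bile duct cells, was above background in C5F, C6 and L2 (log2 11.11, 10.43 and 9.14), while its spot was irregular in liver (raw intensity 39.5) and contaminated in N1 (raw intensity 4963). Epcam was above background in liver (log2 5.61) and C5F (6.21) and near background in L2 (3.29), with irregular spots in C6 and N1. The part of these markers in the Erbb2 difference was not tested.

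Erbb3, the kinase-impaired partner that couples ERBB receptors to PI3K, was measured in liver (137), C6 (86.3) and N1 (76.1), all above background. The spots of C5F and L2 were irregular. Liver was 1.59-fold above C6 and 1.804-fold above N1, and C6 was 1.13-fold above N1. With 1 usable line in each class there was no spread to test against. With the irregular spots kept, the difference of lines minus liver was −0.51 ± 0.33 (log2, SE) with an adjusted p of 0.324. The other Erbb3 probe was near background on all 5 arrays.

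Fgfr4, the fibroblast growth factor receptor of hepatocytes, was above background on every array and fell by nearly the same amount in each line. Its signal was 282 in liver, and C5F had 35.1, C6 had 34.97, N1 had 34.9 and L2 had 39.2. All lines lay below liver, and the low- and high-metastatic lines lay together. Liver was 8.02-fold above C5F, 8.05-fold above C6, 8.06-fold above N1 and 7.19-fold above L2. Between any pair of lines the ratio was only 1.001 to 1.122. The fitted difference of lines minus liver was −2.97 ± 0.20 (log2, SE; limma adjusted p 0.0109). Without C5F or without C6 the adjusted p was 0.0608 or 0.0659 at a difference of −3.01 or −2.91. Fgfr4 also fell beside the hepatocyte markers, and their part in it was not tested.

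Fgfr1, a fibroblast growth factor receptor of mesenchymal and many epithelial cells, was above background on all 5 arrays and had liver in the midst of the lines. The signals, from the lowest, were 16.2 in N1, 22.5 in liver, 22.9 in C6, 27.6 in C5F and 32.3 in L2. Liver and C6, neighbours in this order, differed by 1.02-fold. The 2 high-metastatic lines held both ends of the order, L2 being 2.00-fold above N1. The difference of lines minus liver was 0.09 ± 0.48 and that of high- minus low-metastatic lines −0.14 ± 0.43 (log2, SE; limma adjusted p 0.901 and 0.947).

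Fgfr2, whose isoforms serve epithelial and mesenchymal cells, was above background in L2 alone among its usable spots, which left out liver. Its brightest probe gave 83.3 in L2, and the spots of C5F (−1.85), C6 (2.996) and N1 (1.92) were near background. L2 was therefore at least 10.6-fold above C5F, 7.09-fold above C6 and 6.39-fold above N1. The liver spot was irregular, with a raw intensity of 70.0 before normalisation, so liver could not be placed in this order. Because 1 line alone was above background, the probe was not kept for testing. With irregular spots kept it was tested, and high- minus low-metastatic lines differed by 2.45 ± 1.97 (log2, SE; limma adjusted p 0.772). Lines minus liver was then −3.80 ± 2.20 (adjusted p 0.287), with liver above the mean of the lines. A fainter Fgfr2 probe was near background on every array, with L2 at 8.73 and liver at 8.49, and did not show the step between L2 and the other lines.

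Met, the receptor of hepatocyte growth factor, was faint on all arrays. Its brighter probe gave 24.7 in liver, 14.49 in C6 and 15.4 in L2, above background, and 14.9 in C5F and −5.49 in N1, near background. N1 lay below the other 4 arrays, which were within 1.70-fold of each other where both were above background. The difference of lines minus liver was −1.36 ± 1.12 and that of high- minus low-metastatic lines −1.23 ± 1.01 (log2, SE), with limma adjusted p of 0.432 and 0.800. Without N1 the latter was 0.07 ± 0.16. The other Met probe was near background on every array.

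Axl, a receptor of the vitamin K-dependent ligand GAS6, and Pdgfra, a platelet-derived growth factor receptor of mesenchymal cells, were each read by 1 probe that was near background on all 5 arrays. The Axl signals ran from 5.005 in L2 to 14.4 in liver, and the Pdgfra signals from −0.752 in L2 to 3.45 in N1. These values put no order on the samples for either gene.

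Of the 5 receptors that could be tested between lines and liver, 1 was higher in the lines (Erbb2), 2 were lower (Egfr and Fgfr4) and 2 did not pass the test (Met and Fgfr1). Among all 11949 tested probes, 9.01% were higher and 9.38% lower in the lines. Egfr was kept for testing through liver and Erbb2 through the lines, each the side where it was higher. The median difference was −1.36 over the 5 receptors and 0.15 over all tested probes, on the log2 scale. Without C5F or without C6 no probe on the array passed the test, and without N1 or L2 Erbb2 and Fgfr4 did. Erbb3 had a value without a test, and Fgfr2, Axl and Pdgfra had no probe bright enough to be kept.

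**Figure D2:**
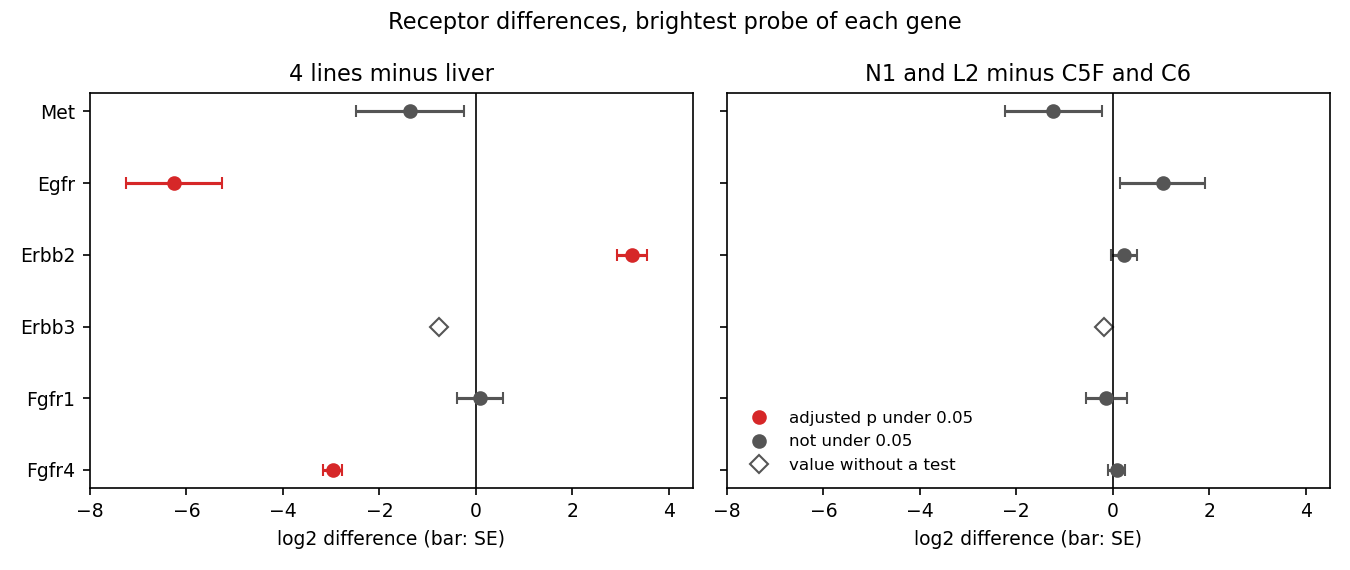
Log2 differences (x axis, bars are SE) of the brightest probe of the 6 receptors kept, for the 4 lines minus liver and for N1 and L2 minus C5F and C6. Red points had an adjusted p under 0.05, grey points did not, and the diamond for Erbb3 has no test. Egfr (−6.26) and Fgfr4 (−2.97) lie below 0 and Erbb2 (3.24) above it against liver, and no receptor is red between the classes.

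Between the high- and low-metastatic lines no receptor passed the test. The design text gives this contrast as its subject, and 0 of 5 tested receptors were called, against 0% of all 13741 tested probes (limma, Benjamini-Hochberg). Without adjustment 1005 of those probes had p under 0.05, and the robust form of limma's fit also called 0. Differences were 1.04 ± 0.89 for Egfr, 0.24 ± 0.28 for Erbb2 and 0.08 ± 0.18 for Fgfr4 (log2, SE), with adjusted p from 0.800 to 0.947 over the 5 receptors. The lines of 1 class lay closest for Fgfr4 and farthest apart for Met, whose class difference had an SE of 1.01. The place of Fgfr4 depended on the scaling. With scaling to the median of bright probes the SE was 0.2712 for Fgfr4 and 0.2695 for Erbb2. A p that misses the threshold does not show that the classes are alike. For none of 6 receptor probes usable in all 4 lines did the 2 classes stand apart without overlap, against 36.7% of 9352 such probes. An exact permutation test of 2 lines against 2 cannot give a p below 0.333, so none was run.

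L2 had receptor signals that were near background in N1. On their brightest probes Egfr and Fgfr2 were above background in L2 and near background in C5F, C6 and N1, with L2 at least 1.22-fold to 2.02-fold above them for Egfr. The other probes of both genes were near background in L2. The Egfr signal of L2 was 15.9, against 11.2 for the dimmest signal above background on that array. Of the 9 receptor genes with a probe, 6 were above background in L2, 5 in C6, 4 in N1, 3 in C5F and 5 in liver, counting a gene with an irregular spot as not above. L2 and N1 carry the same class label, and each value comes from 1 array.

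The ligands of these receptors showed no call against liver. Of 27 ligand genes listed, 22 had a probe, 9 were bright enough to be kept and 7 could be tested; 0 were called higher or lower, and their median difference was −0.11 against 0.15 for all tested probes (log2).

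Among ligands of EGFR, Tgfa was the one above background throughout, at log2 signals of 6.46 in liver, 6.73 and 7.72 in C5F and C6, and 7.76 and 7.50 in N1 and L2. Liver was the lowest of these, but the difference of 0.97 ± 0.47 did not pass the test (limma adjusted p 0.231). Areg was above background in C6 alone (4.71), with irregular spots in N1 and L2, and Ereg in L2 alone (4.51). Egf, Btc and Hbegf were near background on all arrays. Nrg1, which binds ERBB3, was above background in C6 (3.83) and N1 (4.43) and near background in liver, C5F and L2 (1.34, 2.07 and 2.36). Its lines minus liver difference was 1.83 ± 1.17 (adjusted p 0.326).

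Hgf, the ligand of MET made by stellate and endothelial cells in liver, was faint, at log2 signals of 4.16 in liver, 3.49 in C5F, 3.62 (near background) in C6, 4.22 in N1 and 3.85 in L2. These values overlapped between liver and lines (−0.37 ± 0.25, limma adjusted p 0.358). Gas6, the ligand of AXL, gave 8.65 in liver, 6.99 in C5F, 4.74 in N1 and 6.56 in L2, with an irregular spot in C6. Liver was the brightest of the 4 arrays, but the difference of −2.34 ± 0.99 did not pass the test (adjusted p 0.228). Between the classes Gas6 differed by −1.34 ± 1.04 (adjusted p 0.804) and Hgf by 0.49 (adjusted p 0.728).

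Among fibroblast growth factors, Fgf2 ran from 4.52 in N1 to 4.73 in liver on the log2 scale and was above background on all 5 arrays. Fgf1 was above background in liver (4.59) and N1 (5.76) and near background in C5F, C6 and L2 (1.92, 1.34 and 2.17). Its difference of −1.79 ± 1.56 against liver had a limma adjusted p of 0.453. Fgf21, a liver hormone of the fasting response, was above background in L2 alone (4.18). The platelet-derived ligands had irregular liver spots on their brightest probes. Pdgfa gave 7.45 in C5F, 8.39 in C6 and, among the high-metastatic lines, 7.66 in N1 and 8.65 in L2, and Pdgfb 5.49 to 5.83 over the 4 lines. A fainter Pdgfa probe with a usable liver spot differed by 3.31 between lines and liver (adjusted p 0.0825). Pdgfc was above background in C5F alone (3.74).

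**Figure D3:**
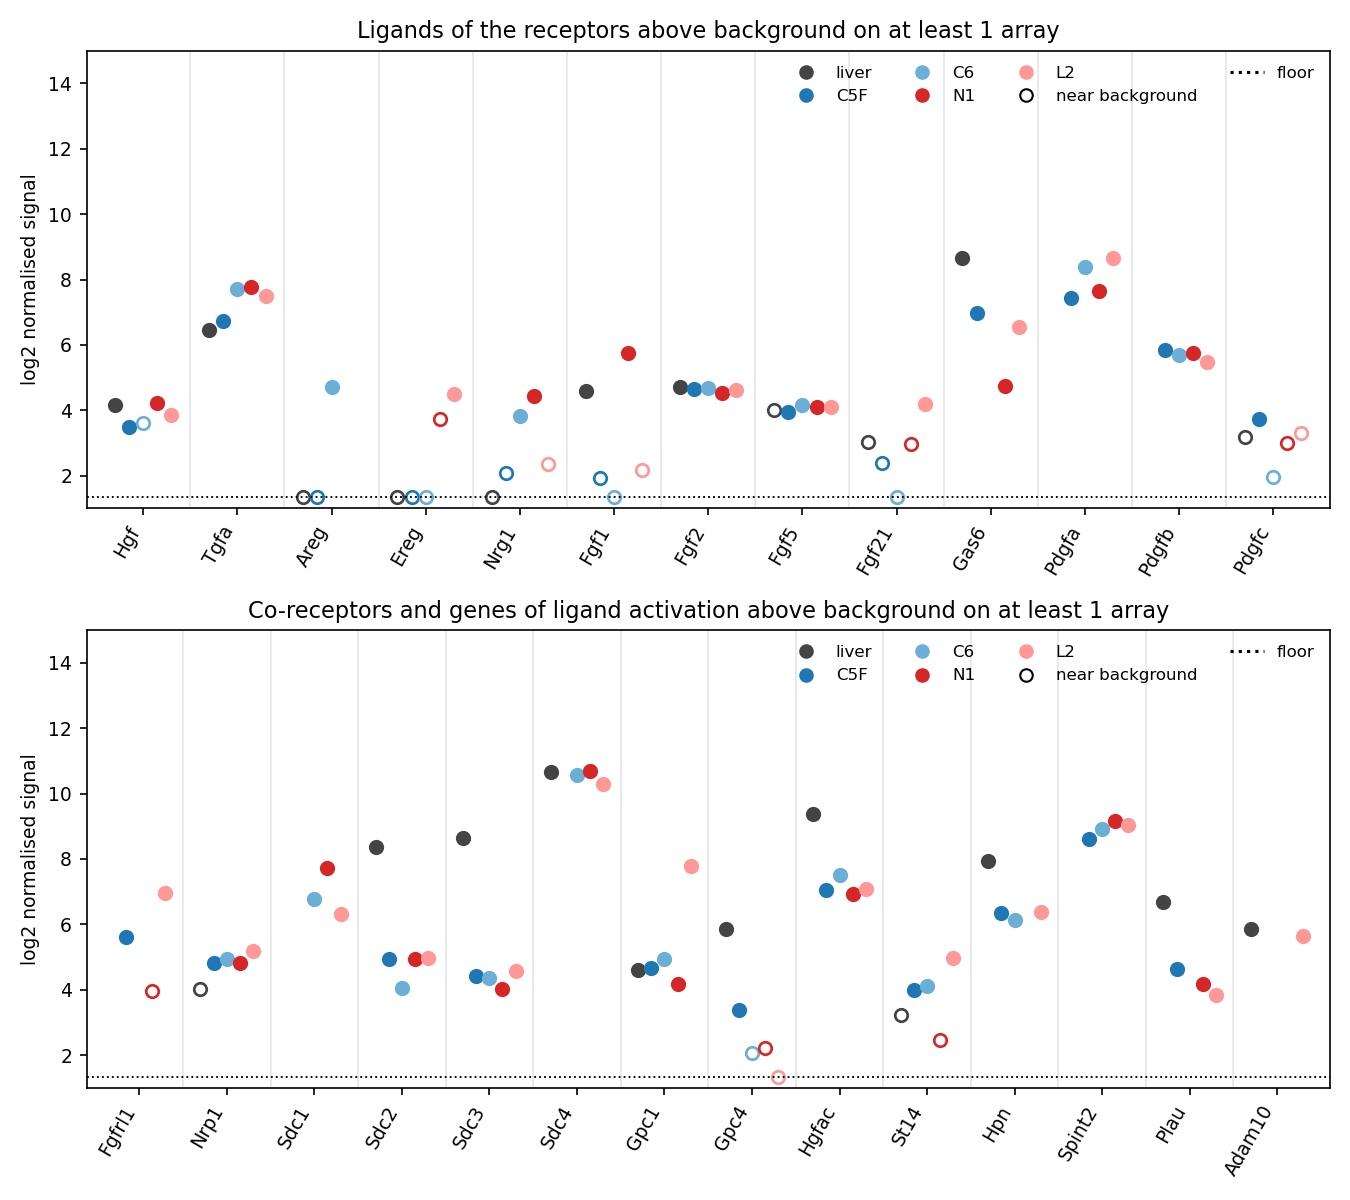
Log2 normalised signal (y axis) of ligands, in the upper panel, and of co-receptors and genes of ligand activation, in the lower panel, on each of the 5 arrays, for genes above background on at least 1 array. Filled points were above background, open points near background, and missing points are irregular spots. Tgfa is lowest in liver at 6.46, and Sdc2, Sdc3, Hgfac and Plau have their highest usable spot there.

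Beside the receptors, 15 of 70 tested genes of 7 pathway lists passed the test against liver, or 21.4%, near the 18.4% of all tested probes. Of the 70 genes 4.29% were higher and 17.1% lower, against 9.01% and 9.38% of all tested probes, and the counts of the single lists stand against the same shares. None of the 15 calls held without C5F or without C6, where no probe on the array passed, and 6 (Sdc3, Csf1r, Kdr, Pdgfrb, Tek and Epha7) held both without N1 and without L2. Without the filter on dim probes 7 held, and those of Sdc2, Hgfac, Plau, Epha7, Ephb6, Map2k1, Fosl1 and Errfi1 were lost. In the deposited normalized values Plau, Ephb6, Spry4 and Fosl1 were lost (adjusted p 0.0525 to 0.0615).

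Co-receptors and genes of ligand activation were lower in the lines where they passed the test. Of 19 genes listed, 16 had a probe and 10 were tested; 0 were called higher and 4 lower, with a median difference of −1.94 (log2). Sdc3, a heparan sulphate proteoglycan, gave 8.64 in liver and 4.02 to 4.57 in the lines (−4.29 ± 0.30, limma adjusted p 0.0113). Its other probe did not show this, at 0.28 (adjusted p 0.610), so Sdc3 is uncertain. Sdc2, the syndecan of hepatocytes and mesenchymal cells, gave 8.37 in liver and 4.06 to 4.97 in the lines (−3.64 ± 0.42, adjusted p 0.0243). Both of its probes fell, the second by 4.02 (adjusted p 0.0157).

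Hgfac, the serum protease that activates HGF, fell by 2.25 ± 0.28 (log2, SE; limma adjusted p 0.0274), from 9.38 in liver to 6.93 to 7.50 in the lines. Plau, urokinase, which can also activate HGF, fell by 2.36 ± 0.30 (adjusted p 0.0475), from 6.67 in liver to 3.83 to 4.62 in the 3 lines with a usable spot. The irregular C6 spot of Plau had a raw intensity of 152.5 against 70.6 in liver, and with irregular spots kept the difference was −1.56 (adjusted p 0.372), so the call for Plau rests on leaving that spot out. The Hgfac signals of the lines all lay below liver. On the brightest probes, the largest difference between the classes in this list was that of Gpc1, a glypican, at 1.18 (adjusted p 0.846). Its signal was 7.78 in L2 and 4.18 to 4.93 on the other arrays. Nrp1, a further co-receptor, differed by 0.13 on its brightest probe (adjusted p 0.898) and by 4.43 on a fainter one, and neither was called. Gpc4, another glypican, which was above background in C5F alone among the lines, differed by −0.93 (adjusted p 0.790), and Plau by −0.62 (adjusted p 0.761). The co-receptor Klb had no probe of its own and was not analysed here.

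Other receptor tyrosine kinases outside the 10 were lower in the lines where the brightest probe of a gene was called. Of 40 genes listed, 32 had a probe and 19 were tested; 0 were higher and 7 lower, with a median difference of −0.48 (log2). Csf1r, the macrophage colony-stimulating factor receptor, was at least 60.7-fold lower in the mean of the lines, Tek, the angiopoietin receptor, at least 11.4-fold, Kdr, a vascular endothelial growth factor receptor, at least 4.36-fold and Pdgfrb, the platelet-derived receptor of stellate cells, at least 4.65-fold. Limma adjusted p for these 4 ran from 0.00703 to 0.0138. Each of the 4 was near background in every line and was kept for testing through its liver spot. Pdgfrb was at the floor in all 4 lines and Kdr in C5F, C6 and L2. The floor removed the spread within a class for Pdgfrb and most of it for Kdr. Their p therefore rests on the floor and on the spread that limma shares over all probes in the fit (SD 0.171 for Pdgfrb). These 4 receptors are themselves markers in the Kupffer cell, endothelial and stellate cell lists, and the summed Kupffer cell list fell with them from 4481 in liver to 60.2 to 88.6 in the lines. Over genes with usable spots on all 5 arrays, the endothelial list (5 genes) summed to 587 in liver and 18.4 to 29.8 in the lines. The stellate cell and fibroblast list (6 genes) summed to 127 in liver and 16.8 to 26.8 in the lines. Col1a1, a collagen of the latter list, gave 7.56 in liver, 7.10 in C5F and 7.49 in N1 (log2), with no usable spot in C6 and L2. The part of these cells in the differences was not tested.

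The ephrin receptors Epha7 (−5.85 ± 0.71, at least 17.9-fold), Epha4 (−2.39 ± 0.24, at least 2.78-fold) and Ephb6 (−2.39 ± 0.29) also fell (log2, SE; limma adjusted p 0.0262, 0.0196 and 0.0462). Epha7 and Epha4 too were near background in every line and kept for testing through their liver spots. Epha7 was at the floor in C5F, C6 and N1. Epha2 went the other way: its brightest probe gave 6.51 in liver and 7.49 to 8.98 in the lines (1.71 ± 0.84, adjusted p 0.231), and a fainter probe had 3.83 (adjusted p 0.0196). For Mertk, a receptor related to AXL, a fainter probe had −2.87 (adjusted p 0.0105), while the brightest had no test at −0.08. Between the classes Igf1r, the insulin-like growth factor receptor, differed by 1.39 ± 0.33 and gave 4.32 in N1 and 4.59 in L2, a bound of at least 2.28-fold over the low-metastatic lines (adjusted p 0.670). Tyro3, also related to AXL, differed by 0.87 (adjusted p 0.670), and neither passed the test.

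Below the receptors, most tested genes of the cascades did not pass the test. Among adaptors and the RAS-ERK cascade 13 of 22 genes had a probe and 8 were tested; 1 was higher and 0 lower, with a median of 0.01 (log2). The 1 gene was Map2k1, the kinase that phosphorylates ERK, at 5.65 in liver and 7.31 to 7.68 in the lines (1.86 ± 0.26, limma adjusted p 0.0315). In the PI3K-AKT branch 16 of 19 genes had a probe and 11 were tested; 0 were called in either direction, with a median of 0.03. The largest values there were −1.70 for Tsc2 (adjusted p 0.0611), a brake on mTOR, and −1.61 for Irs1 (adjusted p 0.436), the insulin receptor substrate.

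Genes that ERK signalling induces, and the inhibitors that feed back on it, had the highest median of the 7 lists, 1.35 (log2), with 17 of 18 genes having a probe and 8 tested. Of these 2 were higher and 0 lower, and both were near background in liver and kept for testing through their spots in the lines. Fosl1, an AP-1 subunit, gave 2.26 in liver (near background), 6.45 in C5F, 7.45 in C6 and 7.68 in L2, with an irregular spot in N1. It was at least 5.98-fold above liver in C5F, 11.9-fold in C6 and 14.01-fold in L2 (5.05 ± 0.58, limma adjusted p 0.0427), and its other probe had 2.65 (adjusted p 0.0792). Spry4, a Sprouty inhibitor of receptor signalling, gave 3.90 in liver (near background), 4.67 in C5F, 4.69 in C6 and 7.79 in L2, again with an irregular spot in N1. It was at least 1.71-fold above liver in C5F, 1.73-fold in C6 and 14.8-fold in L2 (2.34 ± 0.24, adjusted p 0.0374). The call was lost with the lines as 1 group (1.82, adjusted p 0.461) and with irregular spots kept (1.71, adjusted p 0.305), and L2 stood above the low-metastatic lines by 3.10 ± 0.25 (adjusted p 0.626).

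Etv4 and Phlda1 of this list had too few usable spots for a test. Etv4, an ETS factor, was near background in liver and gave 7.96 in C6 and 8.85 in L2, at least 16.98-fold and 31.6-fold above liver. Phlda1 was near background in liver too and gave 7.13 in C6 and 8.31 in L2, at least 9.59-fold and 21.7-fold above liver. Etv1, not kept for testing, was above background in L2 alone, at 7.45, as Fgfr2 was among its usable spots. Also not kept were Fos, above background in C5F alone (3.35), and Spred1, Dusp4 and Dusp6, near background on all 5 arrays. Spry2 gave 5.56 in liver, 1.34 (near background) in C5F, 5.45 in C6 and 6.92 in L2, and its class difference of 3.52 had a limma adjusted p of 0.792. Dusp1, an immediate-early phosphatase, had −3.18 ± 1.497 against liver (adjusted p 0.256).

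Among genes that take receptors down, 15 of 16 had a probe and 7 were tested; 0 were higher and 1 lower, with a median of −0.68 (log2). Errfi1, an inhibitor that binds EGFR and ERBB2 and is itself induced by their signalling, gave 11.49 in liver and 8.33 to 9.48 in the lines (−2.61 ± 0.36, limma adjusted p 0.0318). Between the classes Ptprk, a receptor phosphatase, differed by −1.47 (adjusted p 0.670) and Sh3kbp1, an adaptor of receptor uptake, by 1.16 (adjusted p 0.670). Across all 7 lists 0 genes were called between the classes.

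**Figure D4:**
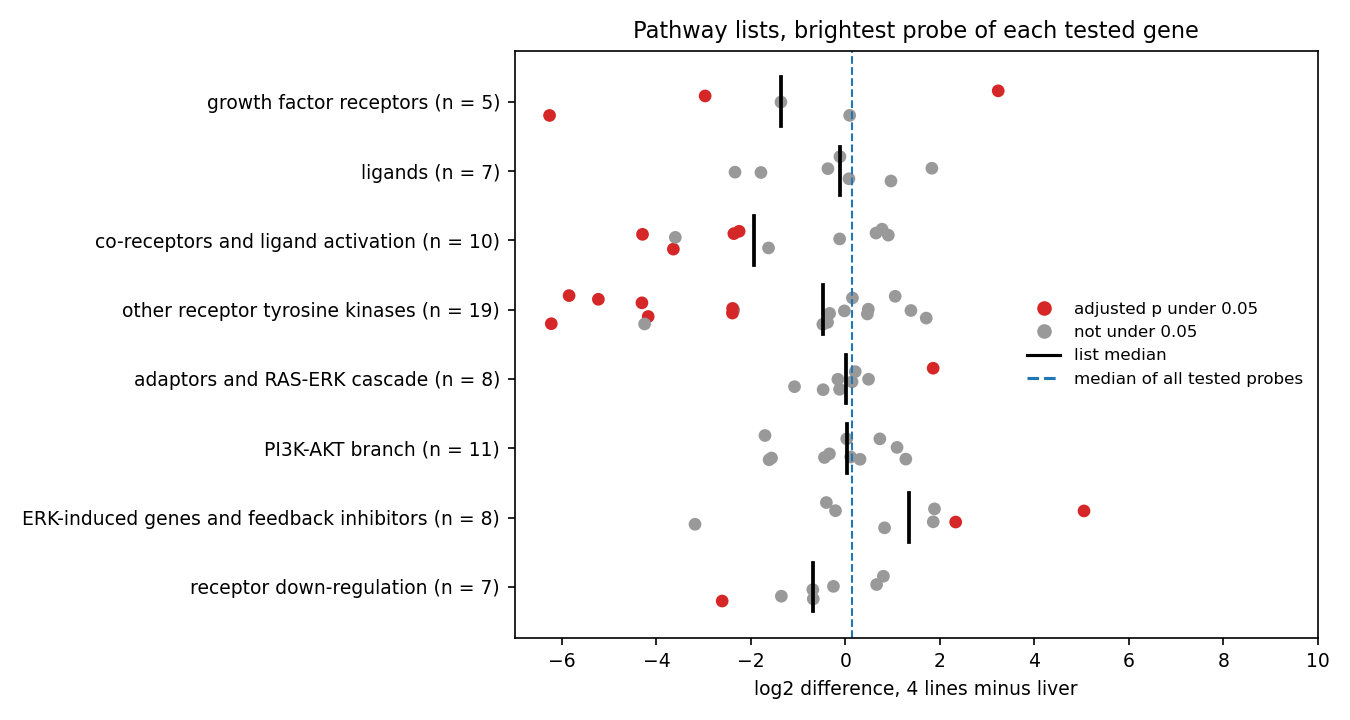
Log2 differences of 4 lines minus liver (x axis) for the brightest probe of each tested gene in the receptors and the 7 pathway lists (rows, n is the number of genes tested). Red points had an adjusted p under 0.05, black bars are list medians, and the dashed line is the median of all tested probes, 0.15. The called co-receptors (4) and other receptors (7) all lie below 0, and the called ERK-induced genes (2) above it.

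The genes whose pattern over the 5 arrays was most like that of a receptor were found among 3674 probes with usable spots on all arrays and above background on at least 3, by the root mean square difference of their mean-centred log2 signals. For Fgfr4 they were Acsm2 (0.141), Mat1a (0.142) and LOC102555217 (0.145). For Erbb2 they were H2az1 (0.0969), Smarcd3 (0.103) and Prps2 (0.118). For Fgfr1 they were Tmem231 (0.106), Eri3 (0.119) and Spice1 (0.131), and for Met they were Pak1 (0.230), Ucn2 (0.342) and Srp9 (0.348). These are descriptions over 5 arrays, and the Met and Erbb2 patterns rest on 1 array each, N1 and liver, that was at the floor.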

How the data were processed

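Total RNA of 4 lines and 1 liver was hybridised to CodeLink Rat Whole Genome slides, each slide holding 1 sample. The scans were quantified by the authors in CodeLink Expression Analysis 4.1.0.29054, per the file headers. The deposited files give a background-subtracted raw intensity per spot and, beside it, that intensity over the median of its array (normalized intensity). The deposited value table holds the same normalized intensity (largest difference 0).

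Work started from the raw intensity of discovery probes, with irregular, contaminated and masked spots set to missing. Signals were quantile normalised with limma 3.58.1 in R 4.3.3, floored at 2.53, the median signal near background, and taken to log2. Probes above background in liver or at least 2 lines were kept (16377). One limma fit over 3 groups (liver and the 2 classes of lines) gave both two-sided contrasts, the mean of the classes minus liver and high minus low, with Benjamini-Hochberg adjustment over 11949 and 13741 probes and a threshold of 0.05. This takes the single liver to vary by as much as lines of 1 class do. Errors are limma's moderated ones, with 1.457 prior degrees of freedom beside at most 2 residual ones. The number of arrays limits the precision, and the smallest p of an exact permutation test is 0.2 for 4 lines against 1 liver. The code was tested on simulated data.

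Symbols came from the platform annotation, updated through a RefSeq gene table (GRCr8); 16753 discovery probes had 1 gene, 165 several and 16931 none. The receptors and gene lists were chosen with earlier results of these data known, from textbook knowledge. Named were every receptor probe, their ligands, from each list the called genes (the 4 largest differences against liver first) and the largest 2 between the classes, and the 3 genes of most similar pattern. The brightest probe stood for a gene, and others are given where they differ. Some list members the rule allows are not described. Alternatives were other scalings, the deposited normalized intensity, an offset, no filter, irregular spots kept, a robust prior, the lines as 1 group, the second probe of a gene and each line left out. A slide effect could not be fitted, as no slide was shared.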

Additional observations from a re-analysis of the deposited data

How the results depend on the processing

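Between the classes, 0 probes and 0 receptors were called under every setting run. Against liver, 2198 probes were called (1077 higher, 1121 lower), 3335 with irregular spots kept, and 0 to 617 with each line left out (0 without C5F or C6, 590 without N1, 617 without L2). With an offset in place of the floor the split was 621 higher and 1312 lower, and without the filter on dim probes 623 and 1725. The 3 receptor calls became 1 with the second probe of each gene, and 0 to 2 with each line left out (0 without C5F or C6, Erbb2 and Fgfr4 without N1 or L2); fewer lines leave fewer degrees of freedom. Fgfr4 ran from −3.06 to −1.95 and was called in 10 of 12 settings, Erbb2 from 0.53 to 3.43 in 9 of 13 and Egfr from −6.74 to −3.17 in 7 of 13. Of the 15 list genes called, 11 to 15 passed under other scalings, priors, the offset, the lines as 1 group or with irregular spots kept. Signs that turned belonged to differences that did not pass the test: between the classes Fgfr4 was −0.0381 with median scaling and Egfr −0.71 with its second probe, and against liver Fgfr1 was −0.0118 in the deposited values. With each line left out, the class difference ran from −2.50 (without L2) to 0.0659 (without N1) for Met, from −0.0449 (without N1) to 0.522 (without L2) for Erbb2, from −0.634 (without L2) to 0.367 (without N1) for Fgfr1 and from −0.0049 (without L2) to 0.170 (without N1) for Fgfr4, and the difference of Fgfr1 against liver from −0.157 (without L2) to 0.343 (without N1). The cause of these was not tested. Scaling to the median of bright probes moved the median of all tested probes from 0.15 to 0.29 against liver and from 0 to −0.12 between the classes. No paired analysis was possible because GEO's labels number no replicates. Signal over background limits Met, Axl, Pdgfra, Fgfr2 and the sizes of the Erbb2 and Egfr differences.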
